A study of Homo sapiens with 16 samples.

Results

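The genes described here are 41 known members of the amino acid and endoplasmic reticulum (ER) stress pathways, of 23459 genes counted in the series. They were taken by symbol from a list of known ATF4 targets and unfolded protein response genes. They were chosen with earlier results of these data known, and all 41 symbols are in the count table. The ATF4 branch holds 34 of them and the ER chaperone branch the other 7. RNA was sequenced from Be(2)-C and IMR5-75, 2 established human neuroblastoma cell lines, that is, lines from a childhood tumour of the sympathetic nervous system. In each line cells received the solvent DMSO, DAC at 1 µM for 72 h, EPZ-6438 (here EPZ) at 1 µM for 96 h, or DAC and EPZ together at these doses and times. The labels do not write DAC out; it commonly means decitabine, a nucleoside analogue that depletes DNA methyltransferases, and EPZ-6438 is an inhibitor of the histone methyltransferase EZH2. Each of the 8 groups held 2 libraries, all groups were grown in RPMI medium, and the labels name no genetic change in either line. Whether the 2 libraries of a group stem from different cultures is not labelled, so the spread behind the p-values could be purely technical.

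When amino acids run short or unfolded protein collects in the ER, stress kinases phosphorylate the translation factor eIF2, general protein synthesis slows, and ATF4 mRNA is translated more. ATF4 protein then drives genes for amino acid import, amino acid synthesis and tRNA charging, together with feedback regulators and secreted factors, while the IRE1-XBP1 and ATF6 arms act on ER chaperones such as BiP (HSPA5). Because ATF4 is controlled largely at translation, its mRNA level is not a measure of its activity, and the counts here do not show ATF4 protein, eIF2 phosphorylation or XBP1 splicing.

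Total counts per library ranged from 9539557 to 14032155, and 15967 genes had enough counts to be tested. Of the 41 members 40 were tested; FGF21, a secreted metabolic hormone, had 0 to 6 counts in every library and was not. Levels are CPM, counts scaled to a common library size, after trimmed-mean scaling between libraries, and 3 counts, the lowest amount taken as detected, corresponded to 0.206 to 0.314 CPM. These levels are not divided by transcript length, so they are compared between libraries and not between genes. Neuroblastoma markers were present in both lines, with a summed level of 4470 to 6870 CPM in Be(2)-C and 2150 to 3260 CPM in IMR5-75. TH and DBH, enzymes of noradrenaline synthesis, were far lower in IMR5-75, with group means of 0.0708 to 1.73 CPM for TH and 1.51 to 14.1 CPM for DBH, against 55.7 to 78.8 and 128 to 201 CPM in Be(2)-C. Markers of other cell types moved with the treatments. In Be(2)-C the 5 epithelial markers summed to 4.86 and 7.25 CPM under DMSO, 19.8 to 23 after DAC, 6.38 to 7.08 after EPZ and 26.7 to 28.4 under both drugs, and 3, 0 and 4 of the 4 tested were called higher. The 5 fibroblast markers there summed to 69.5 to 74.1 CPM under DMSO, 62.4 to 64.4 after DAC, 34.8 to 38.2 after EPZ and 66.8 to 78 under both drugs. Within that list DCN, a matrix proteoglycan, was called lower (-0.60 ± 0.14, -1.30 ± 0.14 and -0.95 ± 0.14 on the log2 scale after DAC, EPZ and both) and the receptor PDGFRA higher (2.53 ± 0.31, 1.58 ± 0.36 and 4.77 ± 0.24). LUM, also of that list, was called higher after DAC (0.98 ± 0.22) and after both drugs (1.12 ± 0.22). In IMR5-75 the epithelial sum was 0.841 to 3.71 CPM and the fibroblast sum 121 to 175 CPM over the 8 libraries. Both sums held opposite called changes in IMR5-75. After both drugs COL1A1 (3.21 ± 0.25), LUM (2.47 ± 0.22) and DCN (3.75 ± 0.41) rose there and PDGFRA fell (-1.09 ± 0.12). EPCAM rose (3.87 ± 0.52) and KRT19 fell (-5.85 ± 1.69), the latter from a mean of only 0.558 CPM under DMSO. The 5 glial markers there summed to 3.03 and 4.35 CPM under DMSO, 11.5 to 12.3 after DAC, 5.98 to 7.95 after EPZ and 14.2 to 15.9 under both drugs, and to 7.53 to 13 CPM over all Be(2)-C libraries. The 5 haematopoietic markers summed to at most 3.15 CPM, with CD3E and HBB at 0 to 2 counts. The part of these markers in the results was not tested. In every group most tested ATF4-branch members were higher in the same 1 of the 2 libraries, and the shift was largest in 2 Be(2)-C groups. DAC 2 was above DAC 1 in 32 of the 33 tested ATF4-branch members, by a median of 0.40 on the log2 scale, against 0 over all genes tested. EPZ 1 was above EPZ 2 in 27 of 33, and the median of EPZ 2 minus EPZ 1 was -0.34, against 0.013 over all genes. The DMSO libraries, the baseline of the changes against DMSO, were also shifted. In Be(2)-C DMSO 2 was above DMSO 1 in 25 of 33, by a median of 0.11, against 0.009 over all genes. In IMR5-75 DMSO 2 was above DMSO 1 in 24 of 33, by a median of 0.14, against -0.011.

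The DNA letters through which these branches are known to be driven are shown for members whose levels are described below. ATF4, paired with a C/EBP protein, binds a composite element searched for here as TGATGNAA, and the ER stress element was searched for as CCAAT, any 9 bases and CCACG, each on both strands in the 250 bases before the gene start. These 2 patterns share no fixed stretch. RefSeq promoters (GRCh38.p14) were found for 35 of the 41 members; NUPR1, EIF4EBP1, INHBE, SLC7A11, GARS and SARS had no entry. The composite element was matched in 5 of 28 ATF4-branch promoters (17.9%) and 1 of 7 ER chaperone promoters (14.3%), against 3.14% of all 35116 promoters. The ER stress element was matched in 0 of 28 and 3 of 7 (42.9%), against 0.074% of all promoters. A match describes letters only and is not evidence of binding in these cells. Each line gives the match in capitals with 20 bases on either side, on the gene's own strand. The first 4, from ATF4-branch genes, lie at chr7:97872449-97872496 (ASNS, minus strand), chr15:40953242-40953289 (CHAC1, plus strand), chr16:70289666-70289713 (AARS, minus strand) and chr1:212565196-212565243 (ATF3, plus strand). The other 3 carry ER stress elements and lie at chr9:125241371-125241429 (HSPA5, minus strand), chr22:28800583-28800641 (XBP1, minus strand) and chr12:103930196-103930254 (HSP90B1, plus strand). The build named for the counts is hg19, so these positions are on another build than the counts. In CHAC1 and AARS the composite element lies on the strand opposite to the gene, so the capitals show its reverse complement.
ASNS: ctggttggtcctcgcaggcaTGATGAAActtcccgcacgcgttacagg
CHAC1: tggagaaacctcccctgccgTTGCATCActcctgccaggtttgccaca
AARS: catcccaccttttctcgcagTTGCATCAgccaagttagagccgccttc
ATF3: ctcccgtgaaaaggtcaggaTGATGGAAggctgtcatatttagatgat
HSPA5: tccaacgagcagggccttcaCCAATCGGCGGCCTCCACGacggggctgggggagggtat
XBP1: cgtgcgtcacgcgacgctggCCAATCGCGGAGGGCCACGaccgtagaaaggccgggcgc
HSP90B1: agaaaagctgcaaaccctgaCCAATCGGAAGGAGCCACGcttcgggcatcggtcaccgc

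In Be(2)-C each drug alone was followed by higher levels of some ATF4-branch genes, and the 2 drugs together by lower levels than under DMSO. After DAC, 6 of the 40 tested members rose and 1 fell, where 6.7% of all tested genes were called (3.73% higher and 2.97% lower). A gene is called here when edgeR's quasi-likelihood test gave a Benjamini-Hochberg adjusted p under 0.05 over all 15967 genes. After EPZ, 10 members rose and 2 fell, against 10.2% of all genes called (5.35% higher and 4.85% lower). After both drugs, 1 rose and 20 fell, against 23.7% of all genes called (13.2% higher and 10.4% lower). The median log2 change over the 32 ATF4-branch members other than NUPR1 was 0.25 after DAC, 0.29 after EPZ and -0.42 after both drugs, while the medians of all genes were 0.016, 0.024 and 0.054. Without DAC 2 the branch median after DAC was -0.035, and without DMSO 1 it was 0.12. Without EPZ 1 the median after EPZ was 0.14, and without EPZ 2 it was 0.4996. After both drugs it stayed between -0.49 and -0.42 whichever of the 4 compared libraries was left out. NUPR1 is left out of these medians because its counts reached 0 in some IMR5-75 libraries. The 3 comparisons share the DMSO libraries. In RNA from whole cultures, a smaller share of cells with a transcript cannot be told apart from less of it per cell.

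With each of the compared libraries left out in turn, the calls after DAC in Be(2)-C were not stable: 0 of the 6 higher calls remained without DAC 2, 0 without DMSO 1, 2 without DMSO 2 and 4 without DAC 1. After EPZ, 4 of 10 higher calls remained whichever library was left out (INHBE, SLC7A11, VLDLR and FAM129A), with 6 remaining without EPZ 1 and 4 without DMSO 1. After both drugs, 8 of 20 lower calls remained throughout (EIF4EBP1, GDF15, SLC7A11, SLC7A5, SLC3A2, SLC1A5, AARS and WARS), and 10 to 14 remained when a single library was left out. No change of a called member reversed its sign in any of these fits.

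Among the secreted factors in Be(2)-C, all 4 that could be tested rose after EPZ, 2 rose after DAC and 3 fell after both drugs. Over all tested genes, 5.35% rose after EPZ, 3.73% rose after DAC and 10.4% fell after both drugs. GDF15, a stress cytokine of the TGF-beta superfamily, was at 2.72 and 5.598 CPM under DMSO, 2.63 and 7.50 under DAC, 17.7 and 12.1 under EPZ and 0.267 and 0.419 under both drugs. Both EPZ libraries were above every other Be(2)-C library, and both libraries with the 2 drugs together were below every other one, with only 3 and 4 counts. Here and below, such separations of groups of 2 libraries describe the values only. The share of all genes that separate in this way is not given here. GDF15 rose after EPZ by 1.84 ± 0.35 on the log2 scale (± is the standard error of the fit) and fell after both drugs with a log2 change of -3.58 ± 0.66. The DMSO libraries differed 2.06-fold from each other, and without DMSO 2 these 2 changes were 2.45 and -2.98. Without DMSO 1 the rise after EPZ was 1.39 and lost its call. INHBE, which encodes an activin subunit, was at 3.35 and 4.04 CPM under DMSO, 6.49 and 14.6 under DAC, 15.9 and 16.7 under EPZ and 1.33 and 1.57 under both drugs. All 4 single-drug libraries were above the DMSO libraries and both combined-treatment libraries below them. The INHBE changes were 1.499 ± 0.30 after DAC, 2.14 ± 0.29 after EPZ and -1.35 ± 0.43 after both drugs, and without DAC 2 the change after DAC was 0.81 and not called. ADM2, the vasoactive peptide also called intermedin, was at 2.35 and 2.20 CPM under DMSO, 3.37 and 4.07 under DAC, 8.71 and 3.88 under EPZ and 0.801 and 0.838 under both drugs. With both drugs it had only 9 and 8 counts. It rose after EPZ (1.46 ± 0.33) and fell after both drugs (-1.47 ± 0.47); EPZ 1 was 2.24-fold above EPZ 2, and without EPZ 1 the rise was 0.76 and lost its call. STC2, a secreted glycoprotein that is induced by ER stress, was at 34.1 and 40.7 CPM under DMSO, 46.9 and 75.3 under DAC, 89.7 and 67.0 under EPZ and 42.9 and 43.5 under both drugs. It rose after DAC (0.71 ± 0.20) and EPZ (1.07 ± 0.20), and its levels under both drugs lay above the DMSO libraries by an uncalled 0.21 ± 0.21. INHBE and ADM2 lost the call after both drugs whichever of the 4 compared libraries was left out (edgeR's adjusted p from 0.0516 to 0.144), and STC2 lost the call after DAC without DAC 2 (0.33, adjusted p = 0.45).

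Of the 6 amino acid transporters in Be(2)-C, 1 rose after DAC, 2 rose after EPZ and 4 fell after both drugs. The matching shares of all genes were 3.73%, 5.35% and 10.4%. SLC7A11, which supplies cystine for glutathione synthesis, was at 26.2 and 35.4 CPM under DMSO, 46.8 and 85.1 under DAC, 90.2 and 80.6 under EPZ and 12.7 and 9.01 under both drugs. The 8 libraries did not overlap between either single drug and DMSO, nor between DMSO and both drugs, which describes the values only. The SLC7A11 changes were 1.10 ± 0.24 after DAC, 1.47 ± 0.24 after EPZ and -1.49 ± 0.28 after both drugs. The call after DAC was lost without DAC 2 (0.60, adjusted p = 0.208 by edgeR's test) or DMSO 1 (0.88, 0.173), and by DESeq2's Wald test (adjusted p = 0.0519). SLC1A4, a carrier of alanine, serine and cysteine, was at 12.2 and 13.2 CPM under DMSO, 15.3 and 19.4 under DAC, 25.6 and 17.8 under EPZ and 9.16 and 11.0 under both drugs. It rose after EPZ (0.77 ± 0.18), a call that was lost without EPZ 1 (0.48, adjusted p = 0.141 by edgeR's test) or DMSO 1 (0.6957, 0.107). Its other 2 changes, 0.45 ± 0.18 after DAC and -0.34 ± 0.19 after both drugs, were not called. SLC7A5, the light chain of the LAT1 exchanger of large neutral amino acids, was at 179 and 192 CPM under DMSO, 137 and 156 under DAC, 276 and 172 under EPZ and 82.6 and 100.2 under both drugs. Its heavy chain partner SLC3A2 was at 222 and 236 CPM under DMSO, 165 and 218 under DAC, 237 and 205 under EPZ and 126 and 131 under both drugs. Both chains were lowest in the libraries with the 2 drugs together, SLC7A5 with -1.02 ± 0.17 and SLC3A2 with -0.83 ± 0.13, and neither was called after a single drug. The glutamine carrier SLC1A5 was at 276 and 298 CPM under DMSO, 222 and 273 under DAC, 248 and 197 under EPZ and 139 and 156 under both drugs and fell after both drugs (-0.96 ± 0.14). SLC7A1, the cationic amino acid carrier, ranged from 60.3 to 115 CPM in Be(2)-C and was not called. SLC7A5 has pseudogene copies, and how reads shared with them were counted is not given in the sources used here.

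Of the 6 regulators of feedback and growth in Be(2)-C, 1 rose after DAC, 2 rose and 1 fell after EPZ, and 3 fell after both drugs. Beside these, 3.73% of all genes rose after DAC, 5.35% rose and 4.85% fell after EPZ, and 10.4% fell after both drugs. PPP1R15A (GADD34), the phosphatase subunit that removes phosphate from eIF2, was at 23.6 and 30.1 CPM under DMSO, 31.7 and 59.6 under DAC, 48.9 and 34.3 under EPZ and 22.3 and 22.8 under both drugs. It rose after DAC (0.76 ± 0.22), where DAC 2 was 1.88-fold above DAC 1 and without DAC 2 the change was 0.23 (adjusted p = 0.593 by edgeR's test), while 0.63 ± 0.22 after EPZ and -0.25 ± 0.23 after both drugs were not called. TRIB3, a pseudokinase that restrains ATF4 signalling, was at 25.8 and 32.6 CPM under DMSO, 28.7 and 53.4 under DAC, 48.1 and 31.3 under EPZ and 14.8 and 18.7 under both drugs. Single-drug changes of 0.49 ± 0.25 and 0.44 ± 0.25 were not called, and it fell after both drugs (-0.81 ± 0.26). CHAC1, an enzyme that breaks down glutathione, was at 10.4 and 12.5 CPM under DMSO, 12.003 and 26.1 under DAC, 25.8 and 15.7 under EPZ and 4.54 and 6.08 under both drugs. Here too only the fall after both drugs was called (-1.12 ± 0.35), next to uncalled 0.73 ± 0.30 and 0.86 ± 0.30 after DAC and EPZ. The falls of TRIB3 and CHAC1 lost their calls without DMSO 2 (-0.63 and -0.98), DAC+EPZ 1 (-0.65 and -0.92) or DAC+EPZ 2 (-0.99 and -1.34). SESN2, a sestrin that holds back the growth kinase mTORC1, was at 21.2 and 25.7 CPM under DMSO, 25.4 and 36.7 under DAC, 45.4 and 31.3 under EPZ and 26.4 and 23.7 under both drugs and rose after EPZ (0.71 ± 0.18). DDIT4, another mTORC1 inhibitor, ranged from 73.4 to 137 CPM and rose after EPZ as well (0.70 ± 0.18). Without EPZ 1 these 2 changes were 0.41 and 0.53 and were not called. EIF4EBP1, which blocks cap-dependent translation, was at 217 and 210.4 CPM under DMSO, 135 and 177 under DAC, 165 and 115 under EPZ and 113 and 115 under both drugs. It fell after EPZ (-0.61 ± 0.15) and after both drugs (-0.91 ± 0.16), and the first call was lost without DMSO 1 (-0.61), DMSO 2 (-0.64) or EPZ 2 (-0.39).

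Of the 7 transcription factors, 2 fell in Be(2)-C after both drugs, where 10.4% of all genes fell. ATF4 itself was at 589 and 602 CPM under DMSO, 511 and 643 under DAC, 559.9 and 502 under EPZ and 549.7 and 522 under both drugs in Be(2)-C and was not called in any Be(2)-C comparison; its change after both drugs was -0.15 ± 0.12. DDIT3 (CHOP), the factor linked to cell death under ER stress, was at 19.6 and 18.6 CPM under DMSO, 17.8 and 33.4 under DAC, 27.0 and 25.4 under EPZ and 14.5 and 14.8 under both drugs and was not called against DMSO. Under both drugs it was lower than under each single drug, with -0.80 ± 0.20 against DAC and -0.84 ± 0.20 against EPZ, calls that were each lost with some libraries left out, DAC 2 among them for the first and EPZ 1 for the second. CEBPG, a dimer partner of ATF4, was at 154 and 157 CPM under DMSO, 141 and 154 under DAC, 149 and 172 under EPZ and 119 and 113 under both drugs and fell after both drugs (-0.43 ± 0.11). The CEBPG call was lost without DMSO 2 (-0.41) or DAC+EPZ 2 (-0.40). ATF3, a stress-induced factor of the same bZIP class, was at 12.6 and 12.4 CPM under DMSO, 11.3 and 15.5 under DAC, 14.2 and 13.8 under EPZ and 8.90 and 10.4 under both drugs and was not called in Be(2)-C. CEBPB (46.5 to 86.7 CPM) and JDP2 (13.1 to 19.5 CPM), 2 further bZIP factors, were called in no Be(2)-C comparison. NUPR1, a small stress-induced nuclear protein, had 13 and 10 counts under DMSO, 5 and 18 under DAC, 32 and 22 under EPZ and 1 and 1 under both drugs. From these counts its level under both drugs was 0.0918 of that under DMSO (exact 95% interval 0.0105 to 0.371, for counting error only) and it was called lower there. That NUPR1 call was lost without DMSO 1, DAC+EPZ 1 or DAC+EPZ 2.

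Genes for amino acid synthesis and tRNA charging supply the building blocks of translation. ASNS, which makes asparagine, was at 126 and 158 CPM under DMSO, 140.1 and 193 under DAC, 203 and 154 under EPZ and 92.1 and 86.0 under both drugs and fell after both drugs (-0.67 ± 0.15). CTH, an enzyme that makes cysteine, rose after DAC (0.86 ± 0.23) from 3.71 and 3.76 CPM under DMSO to 6.08 and 7.59 CPM, a call that was lost whichever of the 4 libraries was left out (0.6976 without DAC 2). Of the 6 genes for tRNA charging and export, 5 fell after both drugs, where 10.4% of all genes fell. The changes of these genes lay between -0.090 and 0.11 after DAC and between -0.12 and 0.32 after EPZ. WARS, the tryptophanyl-tRNA synthetase, was at 154 and 169 CPM under DMSO, 150.4 and 199 under DAC, 215 and 188 under EPZ and 103 and 106 under both drugs and fell after both drugs (-0.63 ± 0.12). AARS, for alanine, was at 261 and 276 CPM under DMSO, 249 and 255 under DAC, 263 and 230.1 under EPZ and 186 and 191 under both drugs and fell by a log2 change of -0.51 ± 0.10. In each of these the combined-treatment libraries were the lowest. GARS, for glycine, was at 242 and 257 CPM under DMSO, 227 and 261 under DAC, 291 and 218 under EPZ and 168 and 183 under both drugs, with -0.51 ± 0.12 after both drugs. SARS, for serine, was at 483 and 472 CPM under DMSO, 421 and 544 under DAC, 461 and 482 under EPZ and 381 and 365 under both drugs, with -0.35 ± 0.12. XPOT, which exports tRNA from the nucleus, was at 372 and 412 CPM under DMSO, 382 and 394 under DAC, 366 and 414 under EPZ and 298 and 289.8 under both drugs, with -0.42 ± 0.12. CARS, for cysteine, was at 54.7 and 54.1 CPM under DMSO, 48.0 and 60.6 under DAC, 56.7 and 62.6 under EPZ and 45.4 and 41.6 under both drugs and was not called against DMSO (-0.32 ± 0.13). The calls of GARS, SARS, XPOT and ASNS were each lost in at least 1 fit with a library left out, for example without DMSO 2. The 2 members outside these roles are VLDLR and FAM129A. VLDLR, a lipoprotein receptor, was at 14.8 and 12.8 CPM under DMSO, 18.5 and 22.3 under DAC, 24.2 and 26.0 under EPZ and 23.1 and 20.5 under both drugs. It rose after DAC (0.57 ± 0.16), EPZ (0.87 ± 0.16) and both drugs (0.67 ± 0.16), and was the only member called higher after both; the last call was lost without DAC+EPZ 1 (0.57) or DMSO 2 (0.56), and that after DAC whichever of the 4 libraries was left out (0.42 without DAC 2). FAM129A (Niban), a stress-induced protein, was at 1.09 and 1.47 CPM under DMSO, 1.73 and 2.96 under DAC, 6.71 and 5.55 under EPZ and 0.623 and 0.105 under both drugs. It rose after EPZ (2.26 ± 0.39), and its level under both drugs rested on 7 and 1 counts.

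Set directly against the single drugs, the combined treatment in Be(2)-C had lower levels of secreted factors, transporters, feedback regulators and tRNA genes. Against DAC, 19 of 40 members were lower, where 5.44% of all genes were called (3.42% higher and 2.02% lower). Against EPZ, 23 were lower, where 4.21% of all genes were called (2.84% higher and 1.37% lower). The log2 difference of GDF15 was -3.85 ± 0.64 against DAC and -5.42 ± 0.55 against EPZ. SLC7A11 gave -2.59 ± 0.27 and -2.96 ± 0.27, and INHBE gave -2.85 ± 0.36 and -3.49 ± 0.35. ASNS, at -0.90 ± 0.15 and -1.002 ± 0.15, and WARS, at -0.73 ± 0.12 and -0.94 ± 0.12, kept both calls whichever library was left out, as did the 3 genes before them. Without DAC 2, however, 6 of the 19 calls against DAC remained, GDF15 was at -2.93 and INHBE at -2.16. Without DAC 1, GDF15 was at -4.44. FAM129A gave -3.96 ± 0.50 relative to EPZ, and -5.74 or -3.28 without DAC+EPZ 1 or DAC+EPZ 2.

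The interaction compares the combined treatment's change with the DAC change plus the EPZ change, on the log2 scale. In Be(2)-C 12 of the 40 members were called, all below that sum, where 0.257% of all tested genes were called (0.0125% above and 0.244% below). Because the members were chosen with earlier results of these data known, the shares given here are descriptive only. The 12 members were 30% of the members tested and 29.3% of the 41 genes called in the whole table. They were SLC7A11 (-4.06 ± 0.37, adjusted p = 4.63e-06), INHBE (-4.99 ± 0.46, 4.63e-06), GDF15 (-5.69 ± 0.72, 0.000232), FAM129A (-4.82 ± 0.69, 0.000892) and ADM2 (-3.63 ± 0.55, 0.00149) at the low end. WARS (-1.05 ± 0.17, adjusted p = 0.00424), SLC1A4 (-1.55 ± 0.26, 0.00424), CHAC1 (-2.70 ± 0.45, 0.0045) and ASNS (-1.23 ± 0.21, 0.00634) followed. STC2 (-1.57 ± 0.28, adjusted p = 0.011), PPP1R15A (-1.64 ± 0.31, 0.0184) and TRIB3 (-1.74 ± 0.36, 0.0362) were nearest to the threshold of edgeR's test. These genes span secretion, cystine import, glutathione breakdown, asparagine synthesis, tryptophan tRNA charging and the eIF2 phosphatase, so they come from 6 of the 7 role groups of the branch, the exception being the transcription factors. ATF4 itself had an interaction of 0.060 ± 0.17.

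**Figure D1:**
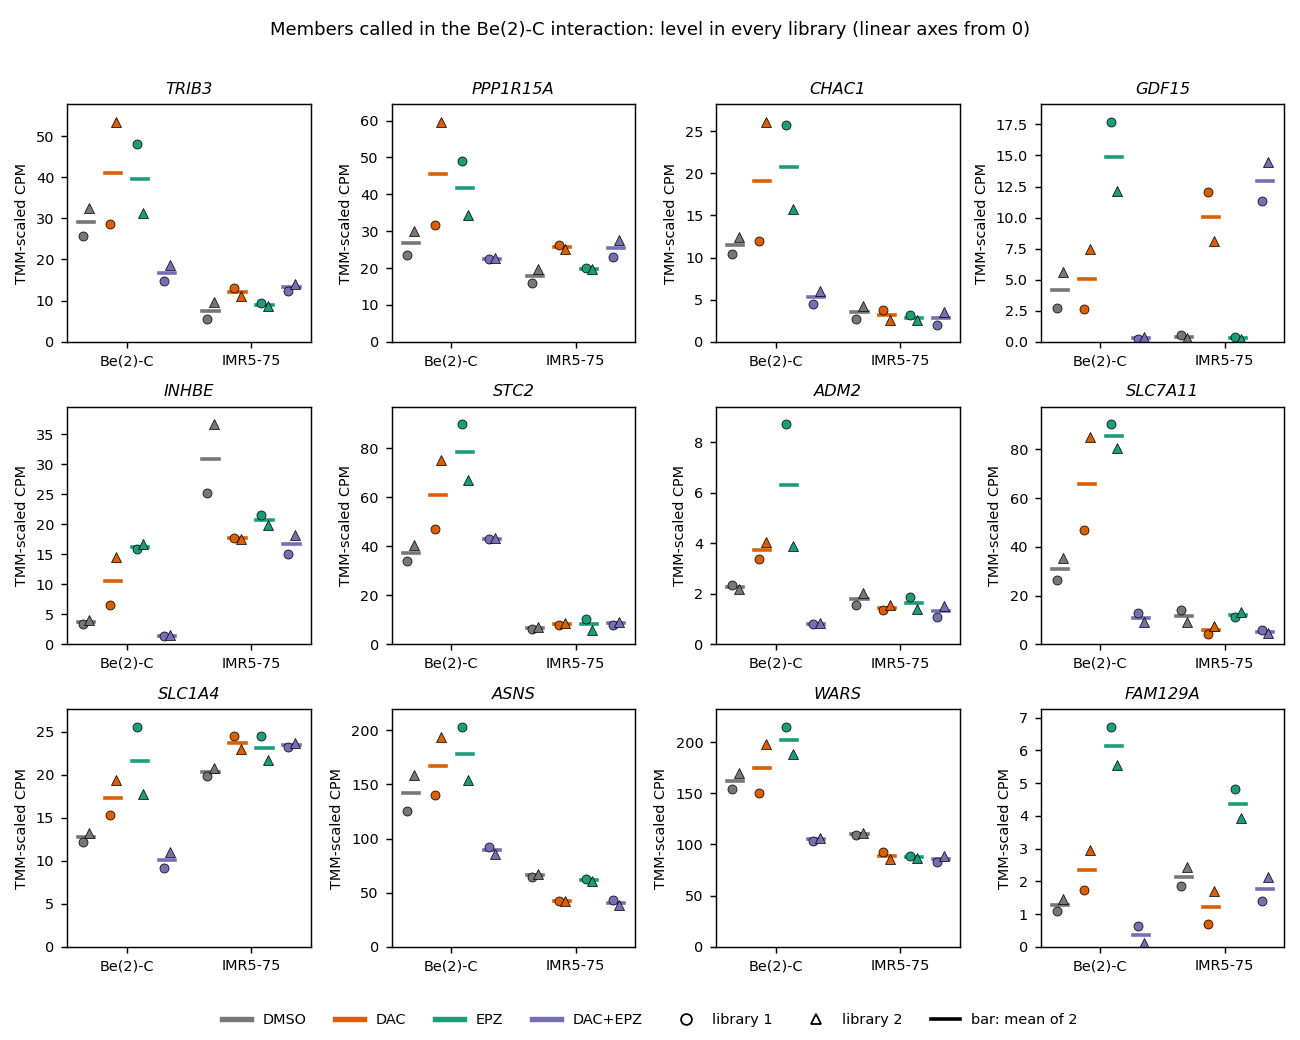
Level in CPM (linear axis from 0) in each of the 16 libraries of both lines for the 12 members called in the Be(2)-C interaction, 1 panel per gene; circles are library 1, triangles library 2 and bars the mean of the 2. In Be(2)-C, for GDF15, INHBE and SLC7A11 the 2 libraries with both drugs are below the DMSO libraries and the 2 EPZ libraries above them.

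Of these 12 calls, 5 remained whichever Be(2)-C library was left out (SLC7A11, INHBE, GDF15, FAM129A and ADM2). The number remaining was 5 without DAC 2 or without DMSO 1, then 7 (DAC+EPZ 1 left out), 8 (DAC+EPZ 2), 9 (EPZ 1) and 11 (DMSO 2). The lost calls had adjusted p-values from 0.0515 to 0.443. The interaction of GDF15 was -6.29 without DMSO 2 and -4.76 without DAC 2, and that of INHBE -4.30 without DAC 2. CHAC1 was at -2.04 without DAC 2, ADM2 at -2.93 without EPZ 1, and FAM129A at -6.59 without DAC+EPZ 1 and -4.13 without DAC+EPZ 2.

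**Figure D2:**
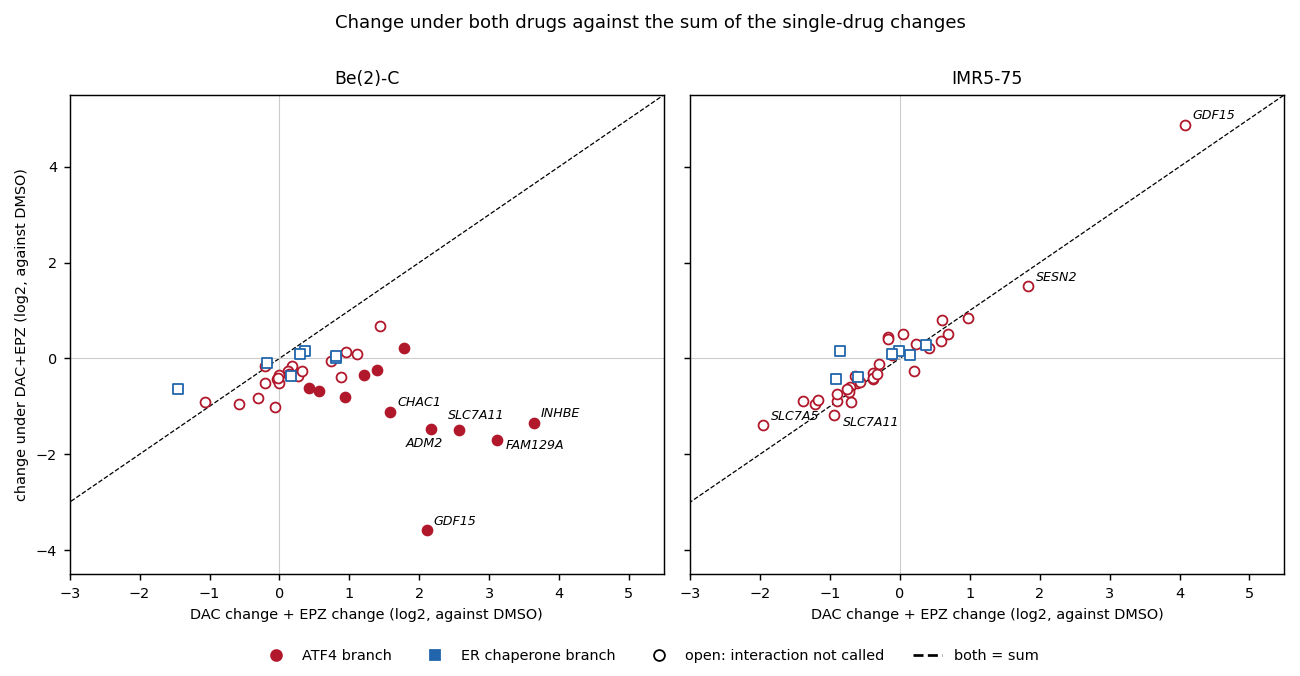
Log2 change against DMSO after both drugs (vertical) against the sum of the DAC and EPZ changes (horizontal) for each tested member except NUPR1 in Be(2)-C and IMR5-75; the dashed line marks equality and filled points are called in the interaction. In Be(2)-C the 12 called members lie below the line, and in IMR5-75 no member was called.

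In IMR5-75, 4 of 6 amino acid transporters and 4 of 6 tRNA genes fell after DAC alone, and GDF15, SESN2 and ATF3 rose. After DAC, 3 of the 40 members rose and 13 fell, where 33.7% of all genes were called (19.9% higher and 13.8% lower). After both drugs 4 rose and 17 fell, where 46.2% were called (25.7% higher and 20.4% lower). After EPZ, 2 fell, where 1.98% were called (1.63% higher and 0.344% lower). The members called lower were 32.5% of those tested after DAC and 42.5% after both drugs, beside 13.8% and 20.4% of all genes, and those called higher 7.5% and 10%, beside 19.9% and 25.7%. The median change of the 32 ATF4-branch members other than NUPR1 was -0.27 after DAC, -0.18 after EPZ and -0.34 after both drugs, against 0.015, 0.010 and 0.028 over all genes. NUPR1 had 0 to 4 counts in every IMR5-75 library.

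GDF15 in IMR5-75 was at 0.516 and 0.336 CPM under DMSO, 12.03 and 8.10 under DAC, 0.394 and 0.236 under EPZ and 11.4 and 14.5 under both drugs. The 4 libraries with DAC were all above the 4 without, which held 3 to 7 counts each, and the changes were 4.52 ± 0.51 after DAC and 4.87 ± 0.50 after both drugs. SESN2, like GDF15 also a known p53 target, was at 31.5 and 33.6 CPM under DMSO, 99.3 and 84.1 under DAC, 42.0 and 40.7 under EPZ and 87.5 and 96.9 under both drugs. Again the 4 libraries with DAC were apart, with 1.49 ± 0.17 and 1.502 ± 0.17, and EPZ alone gave an uncalled 0.34 ± 0.17. ATF3 was at 8.55 and 12.3 CPM under DMSO, 16.7 and 18.2 under DAC, 9.85 and 8.81 under EPZ and 16.4 and 19.6 under both drugs and rose after DAC (0.75 ± 0.19) and after both drugs (0.80 ± 0.19). TRIB3 was at 5.45 and 9.58 CPM under DMSO, 13.0 and 11.1 under DAC, 9.45 and 8.65 under EPZ and 12.4 and 14.1 under both drugs and rose after both drugs (0.83 ± 0.29), a call that was lost without DAC+EPZ 2 (0.77) or DMSO 1 (0.52). The other 3 of these genes kept their calls after both drugs in every fit with a library left out, and ATF3 lost its call after DAC without DMSO 1 (adjusted p = 0.0837 by edgeR's test).

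ATF4 mRNA was at 321 and 369 CPM under DMSO, 269 and 253 under DAC, 297 and 296 under EPZ and 234 and 246 under both drugs in IMR5-75. All 4 libraries with DAC were below the DMSO libraries, and it fell after DAC (-0.40 ± 0.12) and after both drugs (-0.52 ± 0.12); the call after DAC was lost without DAC 2 (-0.35) or DMSO 2 (-0.31). CEBPG was at 120.4 and 109 CPM under DMSO, 64.0 and 71.4 under DAC, 101 and 107 under EPZ and 64.5 and 58.7 under both drugs and fell by a log2 change of -0.76 ± 0.11 and -0.89 ± 0.11. DDIT3 was at 10.0 and 11.4 CPM under DMSO, 12.9 and 12.7 under DAC, 9.21 and 9.12 under EPZ and 13.9 and 16.3 under both drugs and was not called against DMSO. Among the growth regulators, EIF4EBP1 was at 119.8 and 139 CPM under DMSO, 83.3 and 70.4 under DAC, 97.9 and 90.2 under EPZ and 60.05 and 73.0 under both drugs and fell after DAC (-0.75 ± 0.16) and both drugs (-0.96 ± 0.16).

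Of the 6 transporters, 4 fell in IMR5-75 after DAC and 4 after both drugs, where 13.8% and 20.4% of all genes fell. SLC7A5 was at 58.9 and 54.7 CPM under DMSO, 29.1 and 22.0 under DAC, 33.7 and 31.4 under EPZ and 22.6 and 20.7 under both drugs, with both DMSO libraries above all others. It fell after DAC (-1.15 ± 0.18), after EPZ (-0.80 ± 0.18) and after both drugs (-1.39 ± 0.18). SLC3A2 was at 135 and 162 CPM under DMSO, 116 and 107 under DAC, 124 and 118 under EPZ and 91.8 and 104 under both drugs, with -0.41 ± 0.13 after DAC and -0.60 ± 0.13 after both drugs. SLC1A5 was at 239 and 269.8 CPM under DMSO, 204 and 155 under DAC, 196 and 191 under EPZ and 145 and 159 under both drugs, with -0.50 ± 0.14 and -0.74 ± 0.14. The calls of SLC3A2 and SLC1A5 after DAC were lost without DMSO 2 (-0.29 and -0.43) or DAC 2 (-0.35 and -0.31). Their calls after both drugs were kept whichever library was left out. SLC7A11 was at 14.2 and 9.16 CPM under DMSO, 4.25 and 7.64 under DAC, 11.0 and 13.3 under EPZ and 5.72 and 4.601 under both drugs; here the EPZ libraries overlapped the DMSO libraries and the 4 libraries with DAC were below both, with -0.99 ± 0.31 and -1.19 ± 0.31. Both calls were lost without DMSO 1 (-0.62 and -0.78), and the first also without DAC 1 (-0.62) and by DESeq2's Wald test. SLC1A4 was at 19.8 and 20.8 CPM under DMSO, 24.5 and 23.0 under DAC, 24.5 and 21.8 under EPZ and 23.2 and 23.8 under both drugs and was not called. SLC7A1 (17.0 to 31.2 CPM) was not called either. INHBE, at 25.3 and 36.7 CPM under DMSO, 17.8 and 17.5 under DAC, 21.5 and 19.9 under EPZ and 15.1 and 18.3 under both drugs, fell after DAC (-0.81 ± 0.23) and both drugs (-0.89 ± 0.23). Without DMSO 2 these changes were -0.53 and -0.61 and lost their calls, as did the second without DAC+EPZ 1 (-0.71).

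All 6 tRNA genes fell after both drugs in IMR5-75 and 4 of them after DAC, where 20.4% and 13.8% of all genes fell. WARS and SARS lost the call after both drugs whichever of the 4 compared libraries was left out (edgeR's adjusted p from 0.0584 to 0.257), SARS also with no filter (0.0505). GARS lost the call after DAC in each of these fits (0.103 to 0.158), with DESeq2 size factors (0.0514) and with the replicate block (0.0518), and kept it after both drugs. AARS was at 135 and 144 CPM under DMSO, 89.4 and 82.0 under DAC, 102 and 99.6 under EPZ and 77.9 and 74.3 under both drugs, with the 2 DMSO libraries above the others, and fell after DAC (-0.70 ± 0.11), EPZ (-0.46 ± 0.11) and both drugs (-0.87 ± 0.11). XPOT was at 399 and 361 CPM under DMSO, 234 and 284 under DAC, 331 and 352 under EPZ and 210.1 and 194 under both drugs and fell after DAC (-0.55 ± 0.12) and both drugs (-0.91 ± 0.12). CARS was at 79.3 and 86.8 CPM under DMSO, 62.2 and 56.8 under DAC, 69.2 and 67.2 under EPZ and 50.7 and 55.3 under both drugs, with -0.48 ± 0.12 and -0.64 ± 0.12, and GARS was at 246 and 244 CPM under DMSO, 195 and 194 under DAC, 206 and 209 under EPZ and 173 and 174 under both drugs, with -0.33 ± 0.12 and -0.49 ± 0.12. WARS was at 109 and 111 CPM under DMSO, 92.2 and 85.3 under DAC, 88.8 and 86.7 under EPZ and 83.3 and 88.4 under both drugs and fell after both drugs (-0.36 ± 0.12) without a call after DAC (-0.31 ± 0.12). SARS was at 319 and 352 CPM under DMSO, 295 and 292 under DAC, 319 and 292 under EPZ and 255 and 279.7 under both drugs, and again the fall after both drugs (-0.33 ± 0.12) was called and -0.19 ± 0.12 after DAC was not. ASNS was at 64.4 and 67.3 CPM under DMSO, 42.1 and 42.2 under DAC, 62.4 and 61.2 under EPZ and 43.2 and 38.2 under both drugs and fell after DAC (-0.64 ± 0.16) and both drugs (-0.69 ± 0.16), while CTH gave 0.0049 ± 0.17 and 0.071 ± 0.17 and was not called. Whichever library was left out, 7 of the 13 lower calls after DAC and 11 of the 17 after both drugs remained. Of the 2 calls after EPZ, SLC7A5 and AARS, 0 remained in any of these fits, with adjusted p-values from 0.0542 to 0.264.

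With both drugs set against EPZ in IMR5-75, 7 members were higher and 10 lower, where 37.6% of all genes were called (20.7% higher and 16.9% lower). Of the lower members, only CEBPG and XPOT kept their calls whichever library was left out. FAM129A was at 1.84 and 2.44 CPM under DMSO, 0.708 and 1.71 under DAC, 4.80 and 3.93 under EPZ and 1.39 and 2.13 under both drugs. Its EPZ libraries were above all others, and the change after EPZ was an uncalled 1.03 ± 0.35. FAM129A was lower under both drugs than under EPZ (-1.30 ± 0.36), a call that was lost without DAC+EPZ 1 (-0.99) or EPZ 1 (-1.12). The 7 higher members were GDF15 (5.32 ± 0.53), SESN2 (1.16 ± 0.17), ATF3 (0.95 ± 0.19), CEBPB (0.76 ± 0.23), HSPA5 (0.75 ± 0.22), DDIT3 (0.72 ± 0.21) and DDIT4 (0.65 ± 0.18). The calls of CEBPB, HSPA5, DDIT3 and DDIT4 were lost without EPZ 2, with adjusted p-values from 0.054 to 0.0766. Against DAC, edgeR called 0 of 40 members, where 1.94% of all genes were called (1.22% higher and 0.72% lower), with 2 members at an unadjusted p under 0.05 and 0 by DESeq2's Wald test. In the interaction edgeR also called 0 members, where 0.0251% of all genes were called (0.0125% in each direction), with 3 at an unadjusted p under 0.05 and 0 by DESeq2's Wald test. PPP1R15A (16.1 to 27.5 CPM), ADM2 (1.10 to 2.02 CPM) and VLDLR (9.69 to 11.8 CPM) were called in no treatment comparison of IMR5-75. Of the 12 genes called in the Be(2)-C interaction, 5 had an IMR5-75 interaction above 0 and 7 below, and none was called. The values were 0.80 ± 1.04 for GDF15, 0.50 ± 0.32 for INHBE, 0.28 ± 0.17 for WARS, 0.071 ± 0.60 for CHAC1 and 0.040 ± 0.22 for ASNS. They were -0.043 ± 0.58 for ADM2, -0.14 ± 0.41 for TRIB3, -0.18 ± 0.32 for PPP1R15A, -0.20 ± 0.23 for SLC1A4, -0.22 ± 0.37 for STC2, -0.24 ± 0.44 for SLC7A11 and -0.47 ± 0.57 for FAM129A. The difference between the interactions of the 2 lines was not tested.

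Tested directly, the response of 8 members to DAC differed between the lines, where 6.19% of all genes differed (5.13% higher and 1.06% lower in IMR5-75). GDF15 (4.25 ± 0.69, IMR5-75 minus Be(2)-C) and SESN2 (1.09 ± 0.25) had higher changes in IMR5-75. INHBE (-2.31 ± 0.38), SLC7A11 (-2.09 ± 0.39), ASNS (-0.87 ± 0.21), SLC7A5 (-0.81 ± 0.24), CEBPG (-0.68 ± 0.16) and AARS (-0.61 ± 0.15) had lower changes there. INHBE and SLC7A11 rose after DAC in Be(2)-C and fell in IMR5-75. Each of these calls within a line was lost in at least 1 fit with a library left out. Without Be(2)-C DAC 2 the INHBE difference was -1.63 and that of GDF15 5.16, and without Be(2)-C DMSO 2 that of GDF15 was 3.65. The calls of the difference between the lines remained for GDF15, INHBE and SLC7A11 whichever library was left out, and the other 5 were each lost in at least 1 fit. The EPZ response differed for 3 members, where 1.19% of all genes differed (0.57% higher and 0.62% lower): INHBE (-2.72 ± 0.37), SLC7A5 (-1.08 ± 0.24) and VLDLR (-1.08 ± 0.23). Of these INHBE kept its call throughout.

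Under both drugs 5 members differed in their change, where 11.1% of all genes differed (6.71% higher and 4.35% lower). GDF15 gave 8.46 ± 0.82, as it fell in Be(2)-C and rose in IMR5-75; without Be(2)-C DMSO 2 the difference was 7.85. TRIB3 (1.64 ± 0.39), SESN2 (1.40 ± 0.25) and ATF3 (1.18 ± 0.27) were also higher in IMR5-75, and these 4 kept their calls in every fit with a library left out. VLDLR was lower (-0.78 ± 0.23), and lost its call in some of them. The 2 sets of genes that fell after both drugs, which share no libraries, had 15 members in common. These were 75% of the 20 in Be(2)-C and 88.2% of the 17 in IMR5-75. Over all tested genes, 1285 fell in both lines, 77.2% of the 1664 in Be(2)-C and 39.4% of the 3261 in IMR5-75, so the members' share in Be(2)-C was near that of all genes. The 15 were AARS, GARS, SARS, WARS, XPOT, ASNS, SLC7A5, SLC3A2, SLC1A5, SLC7A11, INHBE, CEBPG, EIF4EBP1, XBP1 and SDF2L1.

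Under DMSO, 25 members were lower and 6 higher in IMR5-75 than in Be(2)-C, where 63.2% of all genes differed (32% higher and 31.2% lower). The higher members were INHBE (3.06 ± 0.28), CTH (2.54 ± 0.21), SLC1A4 (0.67 ± 0.18), CARS (0.61 ± 0.12), SESN2 (0.47 ± 0.18) and DDIT4 (0.44 ± 0.18). The lower ones included GDF15 (-3.24 ± 0.60, and -2.63 without Be(2)-C DMSO 2), STC2 (-2.48 ± 0.24), TRIB3 (-1.97 ± 0.28), CHAC1 (-1.72 ± 0.36) and ATF4 itself (-0.79 ± 0.12). STC2 in IMR5-75 was at 6.34 and 7.06 CPM under DMSO, 7.93 and 8.49 under DAC, 10.5 and 5.98 under EPZ and 8.07 and 9.20 under both drugs. CHAC1 there was at 2.73 and 4.29 CPM under DMSO, 3.82 and 2.57 under DAC, 3.15 and 2.59 under EPZ and 1.98 and 3.57 under both drugs. Neither was called after any treatment in IMR5-75. Of these calls 23 of the 25 lower and 4 of the 6 higher remained whichever DMSO library was left out.

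Of the 7 ER chaperone members, 1 fell in Be(2)-C after DAC, 1 after EPZ and 2 after both drugs, and in IMR5-75 0 after each single drug and 2 after both. That is 14.3%, 14.3% and 28.6% in Be(2)-C, where 2.97%, 4.85% and 10.4% of all genes fell, and 28.6% in IMR5-75, where 20.4% fell. None rose, so in IMR5-75 the share called in either direction was below the 46.2% of all genes. HSPA5 (BiP), the main ER chaperone, was at 297 and 289 CPM under DMSO, 276 and 265 under DAC, 553 and 265 under EPZ and 284 and 367 under both drugs in Be(2)-C. The 2 EPZ libraries differed 2.09-fold, with 6096 and 2863 counts, and HSPA5 was not called against DMSO (0.48 ± 0.21 after EPZ). In IMR5-75 it was at 183 and 170.4 CPM under DMSO, 158 and 139 under DAC, 122 and 112 under EPZ and 226 and 168 under both drugs and was not called against DMSO either. XBP1, the factor activated by IRE1 through splicing of its mRNA, was at 186 and 195 CPM under DMSO, 169 and 232 under DAC, 210.3 and 195 under EPZ and 154 and 143 under both drugs in Be(2)-C. In IMR5-75 it was at 77.3 and 83.4 CPM under DMSO, 65.1 and 71.8 under DAC, 64.4 and 59.8 under EPZ and 59.98 and 62.8 under both drugs. XBP1 fell after both drugs in Be(2)-C (-0.36 ± 0.13) and IMR5-75 (-0.39 ± 0.13), calls that were lost whichever of the 4 compared libraries was left out (edgeR's adjusted p from 0.0638 to 0.223). SDF2L1, a cofactor of ER chaperones, was at 37.1 and 30.5 CPM under DMSO, 19.0 and 18.5 under DAC, 22.0 and 22.4 under EPZ and 22.1 and 21.6 under both drugs in Be(2)-C. It fell after DAC (-0.85 ± 0.17), EPZ (-0.61 ± 0.17) and both drugs (-0.63 ± 0.17), with the 2 DMSO libraries above all the treated ones. In the alternatives without DMSO 1 its Be(2)-C changes were -0.71 after DAC, -0.48 after EPZ and -0.50 after both drugs, and none was called. SDF2L1 in IMR5-75 was at 21.8 and 28.1 CPM under DMSO, 23.2 and 16.4 under DAC, 16.5 and 16.7 under EPZ and 17.1 and 19.8 under both drugs and fell after both drugs (-0.43 ± 0.17), a call that was lost in 7 of 9 alternatives. These were DESeq2 size factors, no filter, DESeq2's Wald test and the line fitted alone (adjusted p from 0.0515 to 0.0885), and the fits without DMSO 2 (-0.26), DAC+EPZ 1 (-0.28) or DAC+EPZ 2 (-0.50).

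The remaining ER members, HSP90B1 (GRP94), PDIA4, a disulfide isomerase, HERPUD1, which serves ER-associated degradation, and DNAJB9, a BiP co-chaperone, were called in no comparison of a treatment with DMSO. Over the 16 libraries HSP90B1 ranged from 501 to 792 CPM, PDIA4 from 219 to 283, HERPUD1 from 18.9 to 102 and DNAJB9 from 18.3 to 68.0, and their changes against DMSO lay between -0.17 and 0.49. HSP90B1 also has pseudogene copies whose shared reads cannot be followed here. In the Be(2)-C interaction edgeR called 0 of the 7 ER members, with 4 at an unadjusted p under 0.05 and 0 by DESeq2's Wald test. Over all tested genes 0.257% were called in that interaction, so 0 of 7 does not set this branch apart from other genes. The difference between the 2 branches was not tested. The median change of the 7 after both drugs was 0.012 in Be(2)-C and 0.083 in IMR5-75, beside -0.42 and -0.34 for the ATF4 branch without NUPR1.

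**Figure D3:**
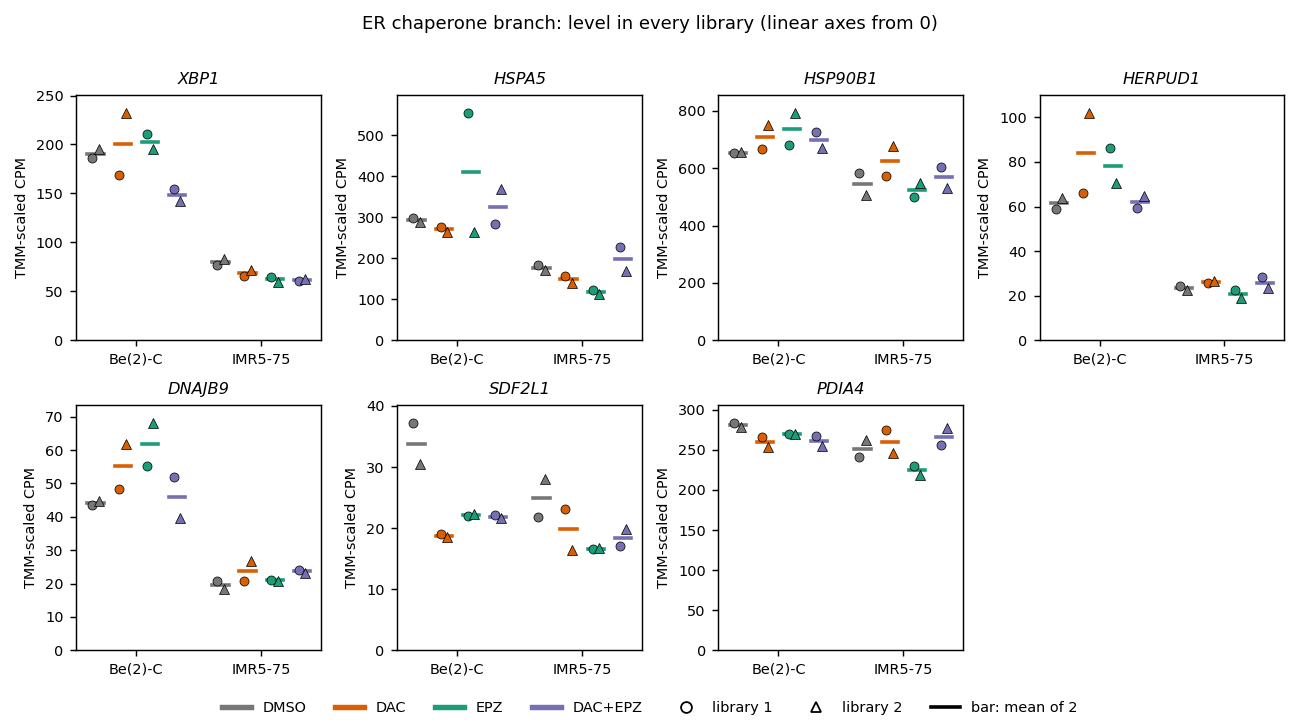
Level in CPM in each of the 16 libraries for the 7 members of the ER chaperone branch, 1 panel per gene, with a bar at each group's mean. The SDF2L1 level is highest in the 2 DMSO libraries of Be(2)-C, and the 2 EPZ libraries of HSPA5 in Be(2)-C stand apart from each other.

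Other genes of these pathways were counted in the same fits. Of 37 tested further ATF4 targets, 5 rose and 2 fell in Be(2)-C after DAC, 9 rose and 1 fell after EPZ, and 3 rose and 13 fell after both drugs. The shares called, 18.9%, 27% and 43.2%, stood beside 6.7%, 10.2% and 23.7% of all genes. Leaving out single libraries gave 0 to 5 higher after DAC, 0 to 8 higher after EPZ and 7 to 13 lower after both drugs. ATF5, a close relative of ATF4, rose after DAC (1.16 ± 0.21), and TNFRSF10B, a death receptor, after EPZ (1.19 ± 0.23). YARS, the tyrosyl-tRNA synthetase, fell after both drugs (-0.79 ± 0.11), while KLHL24 (1.09 ± 0.16) rose. In the Be(2)-C interaction 3 of the 37 were called, ATF5 (-2.62 ± 0.31), AKNA (-3.25 ± 0.45) and GPT2 (-1.16 ± 0.22), all below the sum. Of all tested genes 0.257% were called there, 0.0125% above the sum and 0.244% below, so most called genes of any kind were below. In IMR5-75 8 of the 37 rose and 15 fell after DAC, 1 rose and 2 fell after EPZ, and 8 rose and 21 fell after both drugs. The shares called there were 62.2%, 8.11% and 78.4%, beside 33.7%, 1.98% and 46.2% of all genes, and after EPZ 0 or 1 was called in each direction with a library left out. There BBC3 (PUMA), a cell death gene, rose after DAC (2.03 ± 0.20) and both drugs (2.19 ± 0.20), and PHGDH, the entry enzyme of serine synthesis, fell after DAC (-1.40 ± 0.18).

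Of 30 further ER chaperone and degradation genes, 2 rose in Be(2)-C after EPZ, among them SEL1L of the degradation complex (0.70 ± 0.12), and 3 fell after both drugs, 6.67% and 10% called beside 10.2% and 23.7% of all genes. Of these 30, SEL1L (-0.84 ± 0.17) and EDEM1 (-1.18 ± 0.24) were called below the sum in the Be(2)-C interaction, where 0.244% of all genes were. In IMR5-75 3 rose after DAC, including the lectin OS9 (0.58 ± 0.11), and 7 rose and 7 fell after both drugs. These were 10% and 46.7% called, beside 33.7% and 46.2% of all genes, so the latter share was that of all genes, and with a library left out 2 to 6 rose and 1 to 3 fell. Among 18 stress sensors and eIF2 genes, the sensor ERN1 (IRE1) rose after DAC in Be(2)-C (0.95 ± 0.24) and in IMR5-75 (1.21 ± 0.19), and it was 1 of 1 and 1 of 2 that rose. The eIF2B subunit EIF2B3 fell after both drugs in Be(2)-C (-0.62 ± 0.12) and IMR5-75 (-0.73 ± 0.11), 1 of 4 and 1 of 7 that fell. The list's shares called were 5.56% and 44.4% after DAC and 27.8% and 44.4% after both drugs in Be(2)-C and IMR5-75, beside 6.7% and 33.7%, and 23.7% and 46.2%, of all genes.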

How the data were processed

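RNA from 16 libraries (8 groups of 2) had been depleted of ribosomal RNA, made into strand-specific libraries and read from 1 end, per the labels' protocols. The deposited values are whole-number counts per gene, made by the authors; the submitters' processing notes name TopHat2 2.0.5, HTSeq 0.5.3p9, DESeq2 and the build hg19, without their roles, and for annotation and strand handling the sources used here give nothing. Groups were taken from the sample labels.

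All counts were fitted together with edgeR 4.0.16 in R 4.3.3 (filterByExpr, trimmed-mean scaling, 8 group means, quasi-likelihood test, 8 residual degrees of freedom, common coefficient of variation 9.88%). Benjamini-Hochberg adjustment ran over all 15967 genes and a gene was called at an adjusted p under 0.05. The standard error is the log2 change divided by the square root of F. Alternatives were DESeq2 size factors, no filter, DESeq2 1.42.0's Wald test, the replicate number as a block, each line alone, and each library left out. The fit was checked on simulated counts. Intervals cover counting error only. The members and the other lists were chosen with earlier results of these data known. Values per library are given for ATF4, DDIT3, HSPA5, XBP1, members called in an interaction and members called in at least 2 of the 6 comparisons with DMSO; of the other lists, up to 3 called genes with the smallest adjusted p are named. Single values named beyond this were chosen after they were seen. Promoters are from RefSeq (GRCh38.p14).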

Additional observations from a re-analysis of the deposited data

Results flagged for a closer look

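For 8 members the change after DAC differed between the lines by edgeR's test of the difference itself (IMR5-75 minus Be(2)-C, log2 scale, Benjamini-Hochberg adjusted p over all genes). These were 20% of the 40 members tested, beside 6.19% of all genes. GDF15 differed by 4.25 ± 0.69 (adjusted p = 0.000263) and SESN2 by 1.09 ± 0.25 (0.00755). INHBE differed by -2.31 ± 0.38 (0.000299), SLC7A11 by -2.09 ± 0.39 (0.00136) and CEBPG by -0.68 ± 0.16 (0.00994). AARS differed by -0.61 ± 0.15 (0.0129), ASNS by -0.87 ± 0.21 (0.014) and SLC7A5 by -0.81 ± 0.24 (0.0496). Of 12 alternatives, the SLC7A5 call was lost in 9 and those of SESN2, CEBPG, AARS and ASNS in 2 to 4. The calls of GDF15, INHBE and SLC7A11 were lost in 0.

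The change after EPZ differed for INHBE (-2.72 ± 0.37, adjusted p = 0.000746 by edgeR), VLDLR (-1.08 ± 0.23, 0.0209) and SLC7A5 (-1.08 ± 0.24, 0.0278). These were 7.5% of the members tested, beside 1.19% of all genes. Of 12 alternatives, VLDLR lost this call in 6, SLC7A5 in 7 and INHBE in 0. Under both drugs the change differed for GDF15 (8.46 ± 0.82, adjusted p = 2.77e-07 by edgeR), SESN2 (1.40 ± 0.25, 0.000586), ATF3 (1.18 ± 0.27, 0.00662), TRIB3 (1.64 ± 0.39, 0.00757) and VLDLR (-0.78 ± 0.23, 0.0311). These were 12.5% of the members tested, near the 11.1% of all genes. VLDLR lost this call in 8 of 12 alternatives and each of the others in 0. The 3 sets of differences share the DMSO libraries of each line.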

How the results depend on the processing

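Over the 16 comparisons 197 member calls were made. With DESeq2 size factors 7 of them were lost, with no filter 6, with DESeq2's Wald test 5, and with each line fitted alone 7 of 150; 0 reversed in any setting. Without the filter, the count of members was 2 lower after DAC in Be(2)-C; in IMR5-75 it was 5 higher after DAC, 1 higher and 7 lower after EPZ, 8 higher after both drugs, 1 higher with both against DAC and 1 higher in the interaction. For the line differences it was 8 lower after EPZ, and 8 higher and 0 lower after both drugs. Each line alone gave 5 higher after DAC and 1 lower after EPZ in IMR5-75, and DESeq2's Wald test gave 5 lower for the EPZ difference. The cause was not tested.

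The labels do not say whether the replicate numbers pair the samples. Deviations of same-numbered libraries correlated between -0.328 and 0.237 within a line and between -0.243 and 0.314 across lines. With 2 libraries per group these correlations cannot decide whether same-numbered libraries were paired. With the replicate block 10 of the 197 calls were lost and the Be(2)-C interaction called 12 members, as without it.

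Leaving out each library in turn gave these ranges of members called. In Be(2)-C they were 0 to 7 higher and 0 to 2 lower after DAC, 4 to 14 and 0 to 2 after EPZ, 0 to 1 and 10 to 14 after both drugs, 6 to 21 lower against DAC, 11 to 21 lower against EPZ and 5 to 15 lower in the interaction. In IMR5-75 they were 8 to 12 lower after DAC, 0 lower after EPZ, and 3 to 7 higher and 4 to 6 lower with both against EPZ. For the line differences they were 1 to 3 higher and 2 to 6 lower after DAC, 1 to 6 lower after EPZ and 0 to 1 lower after both drugs. These fits leave a group with 1 library, assumed to vary like the others, and counts over all genes dropped too, to 184 to 351 from 595 for genes higher after DAC in Be(2)-C.

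Counts over all genes that moved over 1.5-fold without the filter were 28 and 81 (2 and 39 with it) higher and lower in the Be(2)-C interaction, 47 and 37 (2 and 2) in that of IMR5-75, 507 and 233 (261 and 55) after EPZ in IMR5-75, 408 (194) higher with both against DAC there, and 217 and 208 (91 and 99) for the EPZ difference. DESeq2's Wald test gave 86 lower after EPZ and 9 lower in the interaction in IMR5-75, and 151 higher for the EPZ difference. With each line alone 29 were lower after EPZ in IMR5-75, and 116 higher and 48 lower with both against DAC; the block gave 76 lower in that comparison. The alternatives for the ATF4-branch medians and the further lists were chosen after seeing the data. Members under about 10 counts (NUPR1, FGF21, GDF15, FAM129A and ADM2 in some groups) are limited by depth.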
